A study of Sus scrofa with 6 samples.

Results

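SOX5, SOX6 and SOX13 make up the SoxD group of transcription factors, and the open chromatin of their loci was followed in pig somites and myotomes with single-cell ATAC-seq, an assay that reads open DNA from the cuts made in it by Tn5 transposase. A locus was taken as the body of the gene and the 100 kb ahead of it on Sscrofa11.1, with genes from the RefSeq annotation. SOX5 (GeneID 100627965) lies at chr5:49159950-50166463, SOX6 (GeneID 397173) at chr2:42447391-43068824 and SOX13 (GeneID 100524269) at chr9:64745762-64780942, all on the plus strand. Peaks called in the separate libraries were merged into regions where they overlapped by at least 1 bp. Of the 294825 regions of the series 233 fell in the 3 loci, 136 at SOX5, 77 at SOX6 and 20 at SOX13. A peak of every library was present in 58 of them (26, 25 and 7), and these shared regions could be compared between stages. The 3 genes were chosen with earlier results of these data known, in which the SOX6 gene window was higher and a region at chr9:64658915-64661047 upstream of SOX13 was lower at E28 than at E18. These 2 measures were taken here as those that selected the genes, and they and the sums that contain them are given below as descriptions. The other values between E28 and E18 come from the same contrast, and their p-values describe where in the loci the libraries differed and lend no support to the choice of the genes.

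The 6 libraries were 1 from each combination of embryonic day 18 (E18), 21 (E21) or 28 (E28) with Tibetan pigs (ZZ) or DurocxTibetan pigs (DZ). Somite tissue was used at E18 and E21 and myotome tissue at E28, so stage and tissue cannot be told apart between E21 and E28 or between E18 and E28. Each library was a mixture of 5 embryos from 1 sow and there was no second library of any stage and breed. The 2 libraries of a stage therefore served as its replicates with breed as a term in the fit. The p-values set a change against the departures of the libraries from this additive fit, that is, how far stage changes differed between breeds. They do not measure the spread between pools of the same stage and breed.

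SoxD proteins bind DNA through an HMG box and pair with each other through a coiled coil, but they carry no known transactivation or repression domain of their own and act through partners. SOX5 and SOX6 cooperate with SOX9 to switch on the genes of cartilage matrix, and SOX6 represses slow fibre genes in developing muscle. SOX5 is also known from neural crest and neural development. SOX13 binds TCF factors of the Wnt pathway. Long genes such as SOX5 and SOX6 hold many of their enhancers in introns, whereas a promoter is often open in most cell types.

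The central 300 bases of the region with the smallest p between E28 and E18 in each direction are shown for each gene, since the results below turn on these elements. SOX13 had no region that was higher at E28. Capitals mark ACAAT, the core recognised by SOX factors, and E-boxes of the form CANNTG, the motif of the myogenic factors, on either strand. The sequences were read from the Sscrofa11.1 assembly, 5′ to 3′ on the plus strand. A region is wider than the peaks of some libraries, and the SOX5 stretch that was higher at E28 lay within peaks of the E21 and E28 libraries only and the SOX13 stretch within peaks of the E18 libraries only.
SOX5 region higher at E28, chr5:49927319-49927618: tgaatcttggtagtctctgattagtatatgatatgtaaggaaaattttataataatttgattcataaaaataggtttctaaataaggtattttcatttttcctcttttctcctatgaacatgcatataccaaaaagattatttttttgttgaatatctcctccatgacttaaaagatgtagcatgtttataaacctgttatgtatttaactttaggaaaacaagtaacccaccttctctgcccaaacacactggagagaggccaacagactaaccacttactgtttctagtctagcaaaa
SOX5 region lower at E28, chr5:49813175-49813474: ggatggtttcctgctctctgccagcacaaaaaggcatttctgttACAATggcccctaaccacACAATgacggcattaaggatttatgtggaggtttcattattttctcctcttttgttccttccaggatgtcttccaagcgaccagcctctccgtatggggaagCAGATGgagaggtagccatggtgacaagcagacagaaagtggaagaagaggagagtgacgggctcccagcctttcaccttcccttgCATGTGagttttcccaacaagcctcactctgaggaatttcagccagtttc
SOX6 region higher at E28, chr2:42671816-42672115: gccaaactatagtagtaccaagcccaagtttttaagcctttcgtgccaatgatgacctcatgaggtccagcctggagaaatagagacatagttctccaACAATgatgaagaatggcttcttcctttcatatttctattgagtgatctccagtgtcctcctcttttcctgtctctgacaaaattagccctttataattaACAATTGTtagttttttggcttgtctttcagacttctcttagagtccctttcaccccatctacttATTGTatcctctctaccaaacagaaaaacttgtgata
SOX6 region lower at E28, chr2:42621244-42621543: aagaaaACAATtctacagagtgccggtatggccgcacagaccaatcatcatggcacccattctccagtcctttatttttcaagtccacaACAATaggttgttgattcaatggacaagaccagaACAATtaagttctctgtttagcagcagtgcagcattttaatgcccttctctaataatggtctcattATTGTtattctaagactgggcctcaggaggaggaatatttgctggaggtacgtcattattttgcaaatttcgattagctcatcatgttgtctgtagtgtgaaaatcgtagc
SOX13 region lower at E28, chr9:64742038-64742337: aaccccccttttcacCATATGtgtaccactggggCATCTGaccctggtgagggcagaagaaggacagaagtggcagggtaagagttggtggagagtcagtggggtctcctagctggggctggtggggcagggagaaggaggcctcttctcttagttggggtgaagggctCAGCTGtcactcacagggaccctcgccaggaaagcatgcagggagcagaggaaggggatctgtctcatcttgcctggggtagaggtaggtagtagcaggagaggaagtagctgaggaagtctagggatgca

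The central 300 bases of 35 of the 58 shared SoxD regions held ACAAT (60.3%), against 29.8% of all 78533 shared regions of the series. The longer AACAAT, of which ACAAT is a part, was present in 16 (27.6%, against 11.2%). CAGCTG, which is one of the CANNTG E-boxes, was present in 11 (18.97%, against 24.0%) and CANNTG in 40 (69.0%, against 79.1%). The SOX6 intronic region that was lower at E28 (chr2:42620661-42622127) held 4 copies of AACAAT and no E-box in this stretch, and the SOX6 region that was higher (chr2:42670852-42673079) held 3. The SOX5 intronic region that was higher (chr5:49926488-49928450) held none of the 4 motifs. Base composition differed between these sets as well: GC made up a median of 39.8% of the shared SoxD regions and of 50.25% of all shared regions, and its part in the motif shares was not tested.

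Between 9286 and 11243 barcodes, here called cells, were kept per library, with medians of 8084.5 to 11452 counts. Values are cut sites scaled to library depth as CPM, counts per 1e+06 kept cut sites, and 1 CPM stood for at least 89.8 cut sites in each library. Any 2 libraries had 113 to 157 barcodes in common. The length of sequence covered by peaks fell with stage over the whole genome, from 191.2 and 167.8 Mb at E18 to 102.2 and 108.4 Mb at E28, and a count can only come from within a peak. Called lengths are given beside the main changes below, and their part in the changes was not tested. Of the cells of the myotome libraries 14.9% (ZZ) and 22.4% (DZ) were myogenic-like, a class in which 10 of 11 myogenic markers were raised, and the tissue label does not describe most of the cells.

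The first comparison asked whether the elements of the 3 genes changed between E18 and E28. Of the 58 shared regions 9 were higher and 19 lower at E28 (edgeR quasi-likelihood test, adjusted p under 0.05 over all 78533 regions), against 19% higher and 18.1% lower among all regions. One of the 19 is the distal SOX13 region by which the gene was selected, and 24 of the 25 SOX6 regions lie in the gene window taken to have selected SOX6, 5 of them called higher and 3 lower, so that their changes between E28 and E18 are descriptions and are given with no p. Of the 33 regions outside both 4 were higher and 15 lower. SOX5 had 3 higher and 9 lower of 26, SOX6 had 1 higher of the 1 outside its window, and SOX13, without the selected region, had 0 higher and 6 lower of 6. The median log2 fold change was -0.80 for SOX5, 0.19 for all 25 SOX6 regions and -1.32 for SOX13 without the selected region, against -0.02 for all regions. With an offset for called length, so that counts per called base are compared, the split was 21 higher and 9 lower, or 51.7% of the 58 called, where 51.7% of all regions passed (45.3% higher, 6.44% lower). The median of all regions moved to 0.42 under this scaling. The SOX5 regions were then split 10 higher and 5 lower with a median of 0.28, which is above 0 and below that of all regions. Those of SOX6 were split 11 higher and 2 lower (median 0.48) and those of SOX13, the selected region included, 0 higher and 2 lower (median -0.41). The SOX5 median was also above 0 where fewer of its regions were kept, although more of these were called lower than higher. It was 0.41 over 5 regions with called lengths within 1.5 times, with 0 called higher and 2 lower. Over 11 regions covered by at least 50% in every library it was 0.15, with 0 higher and 4 lower. Over 14 regions made of peaks open in at least 1% of cells it was 0.46, with 3 higher and 5 lower. The medians of all regions under these 3 settings are not given here. Relative to the median of all regions the 28 called regions kept their direction with the offset (9 of 9 higher and 19 of 19 lower), although only 8 of the 19 that fell were still called lower. Of these 8, 4 were at SOX5, 2 in the SOX6 window and 2 at SOX13, the selected distal region among them. The counts of 28, 9 and 19 thus include regions of the selecting measures. Without the E18 DZ library 8 regions passed in place of 28 (13.8%, where 10.5% of all regions passed in that fit), and without the E18 ZZ library 18 (31%, against 20.9%).

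**Figure D1:**
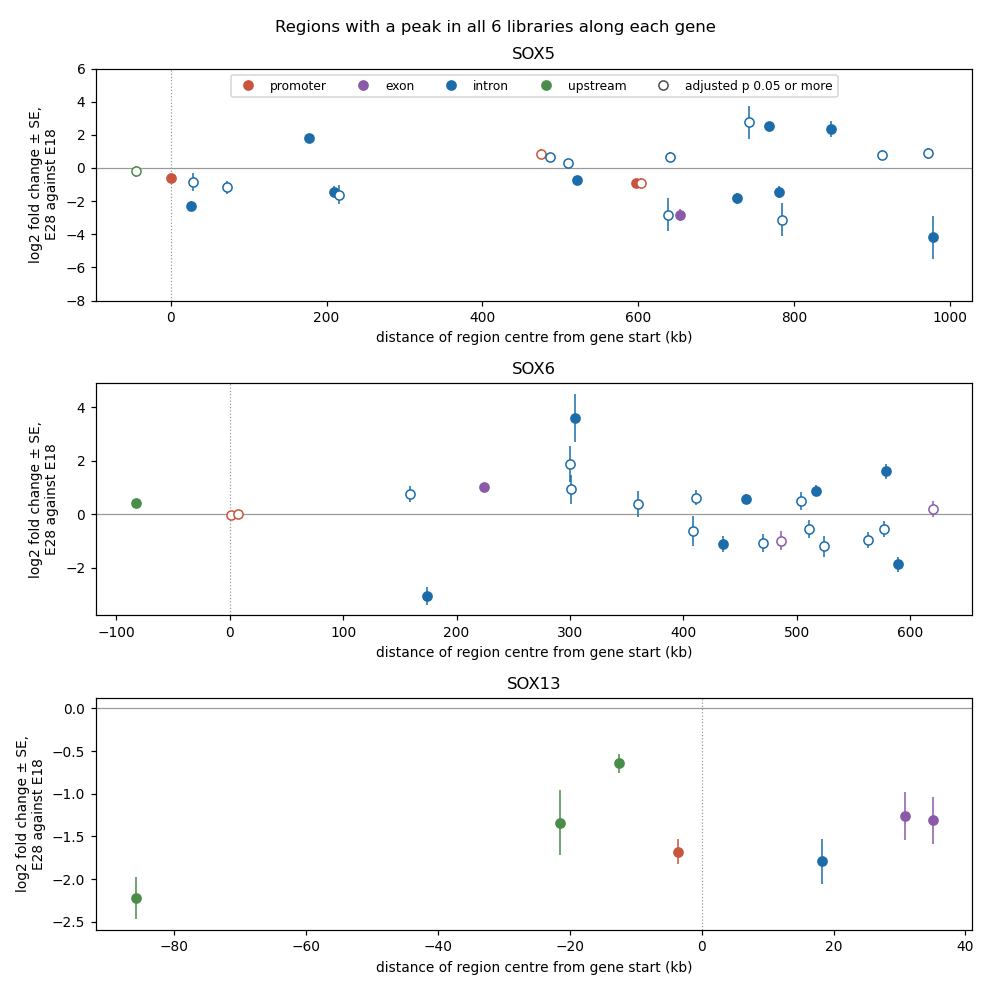
Log2 fold change ± SE between E28 and E18 for each shared region (edgeR, 2 libraries per stage) against the distance of its centre from the gene start in kb, 1 panel per gene, coloured by element. Filled points passed an adjusted p of 0.05. SOX5 and SOX6 hold filled points on both sides of 0 and all 7 SOX13 points, the selected distal region among them, lie below it. The SOX6 points in the gene window and the SOX13 point at -85.8 kb belong to the selecting measures, and their fill is description only.

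Promoters were defined as peaks that reached the 2 kb before any annotated start of the gene. SOX6 had 2 CpG-rich promoter regions. The region at the gene start (chr2:42445887-42450301) had 30.1 and 30.2 CPM at E18 (ZZ before DZ here and below), 33.4 and 25.5 at E21 and then 31.8 and 29.6 at E28. The neighbouring region at chr2:42451967-42457462, the most accessible of all 233, had 69.4 and 74.4 CPM at E18, 73.3 and 67.4 at E21 and then 71.6 and 77.5 at E28. The libraries of the stages overlapped in both, and the log2 fold changes between E28 and E18 were -0.02 ± 0.12 and 0.00 ± 0.09 (SE), with a ratio of observed to expected CpG of 0.61 and 0.63 against a median of 0.33 over all shared regions.

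The promoter at the start of SOX5 (chr5:49158672-49162812, CpG ratio 0.76) had 51.1 and 52.4 CPM at E18, 47.3 and 41.0 at E21 and then 37.6 and 32.8 at E28. Both E28 libraries were below all others, and the region fell by 0.61 ± 0.09 on the log2 scale (adjusted p 0.0068) while called length went from 4140 and 3967 bp to 3662 and 3661 bp. An internal promoter of SOX5 with a low CpG ratio of 0.25 (chr5:49755192-49758526, 596.9 kb from the gene start) had 32.9 and 37.9 CPM at E18, 35.7 and 28.5 at E21 and then 21.8 and 18.3 at E28, and it fell by 0.88 ± 0.14 (adjusted p 0.008), while called length went from 3293 and 2441 bp to 2127 and 2063 bp. Neither passed without the E18 DZ library. The next promoter region along the gene (chr5:49763006-49763635) had a log2 fold change of -0.91 ± 0.30 (adjusted p 0.062).

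A further internal SOX5 promoter behaved differently. The region at chr5:49634824-49635998 had 1.98 and 3.23 CPM at E18, 8.91 and 8.94 at E21 and then 5.07 and 4.52 at E28, so that the E21 libraries were above all others. Called length was also greatest at E21, with 592 and 794 bp at E18, 1154 and 1163 bp at E21 and then 868 and 958 bp at E28. Its rise between E18 and E21 was 1.74 ± 0.30 on the log2 scale (adjusted p 0.036), while the value between E28 and E18 was 0.86 ± 0.30 (adjusted p 0.068). The call was lost whenever an E18 or E21 library was left out, which leaves a single library at that stage.

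Introns held most of the regions of SOX5, 113 of 136, of which 20 were shared, 3 called higher and 6 lower at E28. The gain with the smallest p was the region at chr5:49926488-49928450, 767.5 kb into the gene, with 3.08 and 3.38 CPM at E18, 9.76 and 14.9 at E21 and then 20.4 and 18.2 at E28. Its stages did not overlap, and it rose by 2.53 ± 0.26 on the log2 scale (adjusted p 0.0033). Called length rose as well, from 1148 and 934 bp to 1806 and 1849 bp. A region at chr5:49336291-49338978 had 3.89 and 5.30 CPM at E18, followed by 11.7 and 16.8 at E21 and 18.1 and 14.7 at E28 (1.81 ± 0.26), with an adjusted p of 0.0061 and called lengths that went from 1268 and 1285 bp to 1769 and 2279 bp. The third, chr5:50006364-50007733, had 1.32 and 0.80 CPM at E18 against 4.39 and 7.41 at E28 (2.35 ± 0.47, adjusted p 0.013, not called without the E18 DZ library), and its called length went from 577 and 304 bp to 708 and 802 bp.

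The loss with the smallest p at SOX5 was a region over an exon (chr5:49812883-49813767), with 8.66 and 14.4 CPM at E18, 10.9 and 7.92 at E21 and then 1.75 and 1.55 at E28. It fell by 2.85 ± 0.35 between E18 and E28 (adjusted p 0.0043) and its called length from 842 and 885 bp to 440 and 420 bp. An intronic region near the gene start (chr5:49185125-49186058) had 5.47 and 5.90 CPM at E18, 4.55 and 5.94 at E21 and then 1.29 and 1.12 at E28, and it fell by 2.28 ± 0.30 (adjusted p 0.0051) as its called length went from 934 and 882 bp to 331 and 368 bp. With the called length offset the value was -0.90 for this region and -1.83 for the exon region, where the median of all regions was 0.42. In both regions the E18 and E21 libraries overlapped and both E28 libraries were below them. In the fit reported gains and losses lay side by side within the same gene. The gain centred 767.5 kb from the gene start lay between called losses at chr5:49886114-49886994 (-1.82) and chr5:49939321-49940617 (-1.46). With the called length offset 4 of the 9 called SOX5 losses kept their call. The losses on either side of the gain were not among them, while the gain kept its call.

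At SOX6 the regions called lower and 5 of the 6 called higher lay in the body, within the selecting window. The intronic region at chr2:42620661-42622127 had 5.73 and 10.3 CPM at E18, 9.52 and 8.62 at E21 and then 0.79 and 1.19 at E28. It fell by 3.04 ± 0.33 on the log2 scale between E18 and E28, and peaks covered 1299 and 1338 bp at E18 but 268 and 412 bp at E28. With the called length offset the value was -1.08, where the median of all regions was 0.42. A second loss, at chr2:43036661-43037693, had 7.04 and 7.87 CPM at E18, followed by 5.55 and 6.82 at E21 and 2.29 and 1.93 at E28 (-1.87 ± 0.27) as called length went from 963 and 931 bp to 431 and 442 bp. The third, chr2:42881427-42882735, changed by -1.09 ± 0.30 with a called length that went from 863 and 1303 bp to 525 and 702 bp, and was no longer called with the offset and in 5 of the 6 fits that left out a library.

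In the SOX6 body regions named for a gain E21 was above E18 in both breeds. A region that contains an exon (chr2:42670852-42673079) had 8.23 and 9.78 CPM at E18, 17.5 and 17.8 at E21 and then 18.8 and 18.6 at E28. Called length was 1478 and 1405 bp at E18, 2140 and 2108 bp at E21 and then 1353 and 1503 bp at E28. With the called length offset the value between E21 and E18 went from 0.91 to 0.35. In CPM E18 stood apart from the later stages, and the rise between E18 and E28 was 1.01 ± 0.16. It was not called without either E18 library. The region at chr2:43025817-43026654 had 2.88 and 3.10 CPM at E18, followed by 5.33 and 8.95 at E21 and 8.28 and 10.7 at E28 (1.60 ± 0.28). Neither this gain nor the loss at chr2:43036661-43037693 passed without the E18 DZ library. The most accessible intronic region (chr2:42901619-42903928) had 12.9 and 13.0 CPM at E18 and 18.7 and 21.7 at E28 (0.58 ± 0.16), a call that was lost in 5 of 6 fits without a library and when the fit was limited to regions of similar called length.

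At SOX13 the 6 shared regions other than the selected distal region were called lower at E28, with log2 fold changes from -1.79 to -0.64. The shared region nearest the annotated start (chr9:64739626-64744749) had 35.6 and 36.2 CPM at E18, 21.3 and 16.5 at E21 and then 11.8 and 11.4 at E28. The 3 stages did not overlap. Its fall was 1.68 ± 0.14 on the log2 scale between E18 and E28 (adjusted p 0.0028), with a fall of 0.995 between E18 and E21 (adjusted p 0.027) and of 0.68 between E21 and E28 (adjusted p 0.048). The call between E21 and E18 was lost with the called length offset and whenever an E18 or E21 library was left out, and that between E28 and E21 under these same settings and with DESeq2 size factors. Called length fell in the same order, from 5100 and 4235 bp at E18 to 1438 and 1527 bp at E28. With called length as an offset the change between E28 and E18 was -0.04 (adjusted p 0.86), below the median of 0.42 for all regions under that scaling, and the change between E28 and E21 was 0.38 (adjusted p 0.071), near the corresponding median of 0.32.

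The shared intronic region of SOX13 (chr9:64763108-64765018) had 16.8 and 18.9 CPM at E18, 17.0 and 10.5 at E21 and then 6.83 and 4.29 at E28 (-1.79 ± 0.26, adjusted p 0.0062) while its called length dropped from 1858 and 1911 bp to 1085 and 954 bp. A region over an exon (chr9:64775854-64777211) had 8.67 and 8.09 CPM at E18 followed by 3.48 and 3.70 at E28 (-1.26 ± 0.28, adjusted p 0.018). Its called length dropped from 1358 and 921 bp to 634 and 651 bp, and it was not called with the offset or without either E18 library. The distal region by which SOX13 was selected had 28.7 and 35.8 CPM at E18, 26.8 and 18.2 at E21 and then 9.07 and 5.73 at E28, with called lengths of 2059 and 2106 bp at E18 that compare with 1679 and 1484 bp at E28. The CpG-rich region at chr9:64731274-64735300, -12.5 kb from the annotated start and with a CpG ratio of 0.53, had 50 and 48.0 CPM at E18, 42.0 and 37.3 at E21 and then 37.5 and 28.0 at E28. Its change was the smallest of the 7 (-0.64 ± 0.11, adjusted p 0.0089). Called length went from 4027 and 2754 bp to 2593 and 2560 bp, and the region was not called with the offset or without the E18 DZ library.

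Upstream regions of SOX5 and SOX6 were few. The single shared upstream region of SOX5 (chr5:49114859-49115711) had 2.10 and 2.80 CPM at E18, 2.72 and 5.56 at E21 and then 1.78 and 2.75 at E28 (-0.19 ± 0.33, adjusted p 0.67). The single shared upstream region of SOX6 (chr2:42363081-42365847) also covers the start of another gene, C2H11orf58. It had 44.7 and 44.4 CPM at E18, 54.3 and 57.0 at E21 and then 63.4 and 59.4 at E28 (0.41 ± 0.09, adjusted p 0.017, not called without either E18 library).

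**Figure D2:**
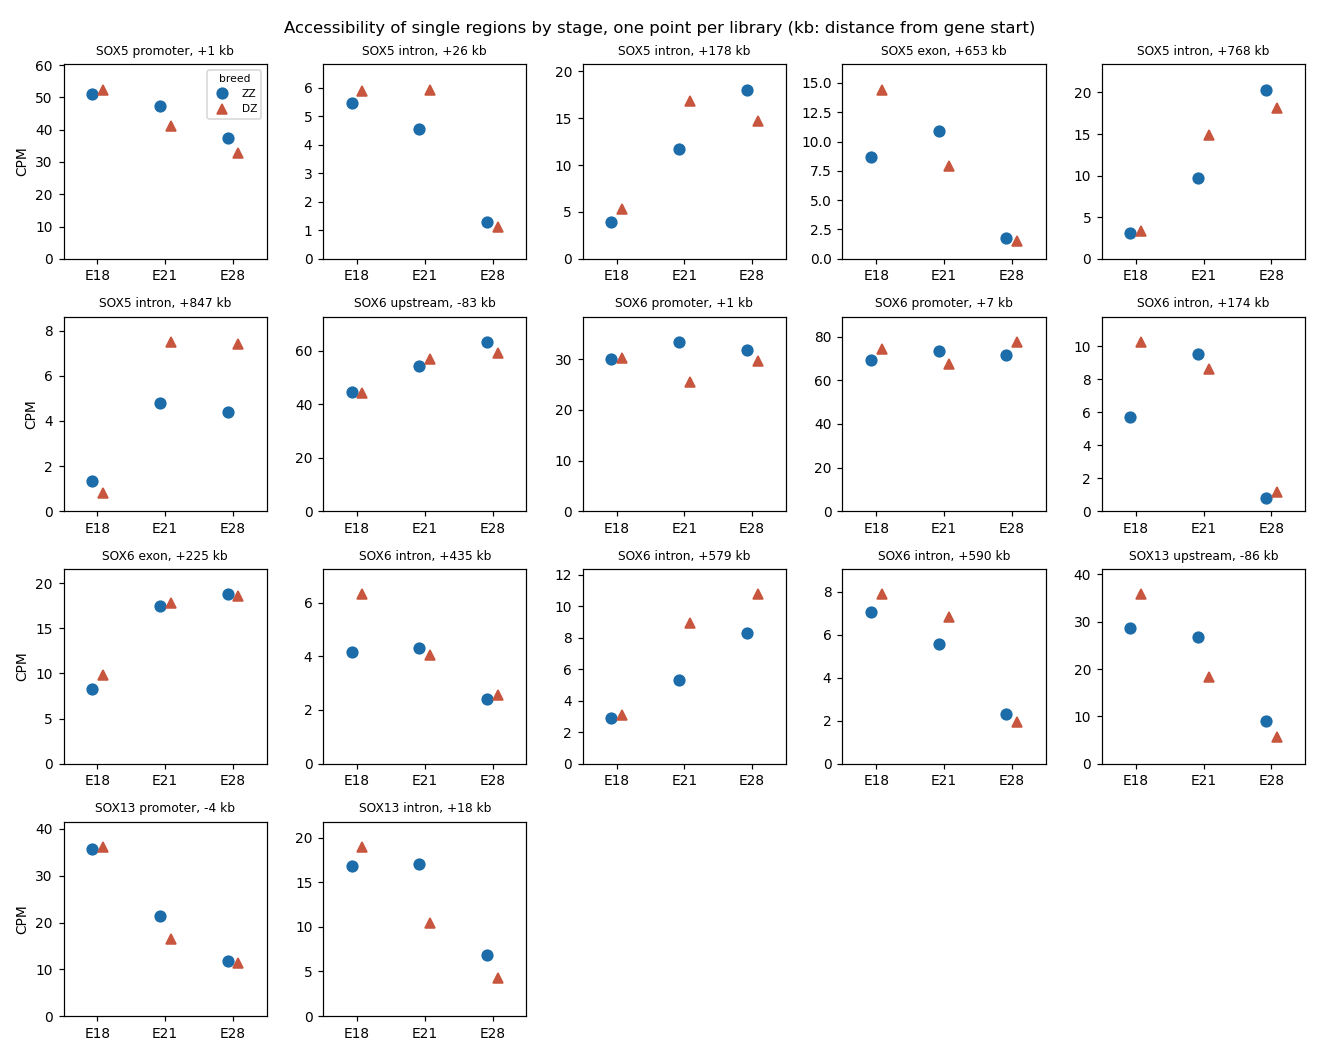
CPM of 17 shared regions by stage (1 point per library, circles ZZ, triangles DZ, every axis from 0), each panel named by gene, element and distance from the gene start. The SOX6 promoters stay level, the SOX5 region at 767.5 kb rises from 3.08 and 3.38 to 20.4 and 18.2 CPM, and the SOX13 promoter falls from 35.6 and 36.2 to 11.8 and 11.4 CPM.

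Sums over all peaks of one kind, which also take in peaks found in some libraries alone, gave 9 values for the 3 genes. The promoter and intron sums of SOX6 are parts of its selecting window and the upstream sum of SOX13 holds the selected region. Of the other 6 sums 5 passed at E28 relative to E18, 4 of them lower and 1 higher, where 31.7% of the promoter sums, 19% of the intron sums and 47.4% of the upstream sums of all genes passed. SOX5 promoter peaks summed to 92.2 and 102 CPM at E18, 98.8 and 85.6 at E21 and then 67.4 and 58.0 at E28 (-0.79 ± 0.11, adjusted p 0.017). It was not called without E18 DZ, and with exons assigned before promoters it changed by 0.00 (adjusted p 1), where 0% of all promoter sums passed. SOX5 intron peaks summed to 164 and 186 CPM at E18, 213 and 241 at E21 and then 138 and 124 at E28 (-0.29 ± 0.13, adjusted p 0.20). Their called length was 49948 and 46080 bp in the E18 libraries and 19750 and 20386 bp in the E28 libraries. With the called length offset the same peaks had a value of 0.999, where the median of all intron sums moved from -0.27 to 0.82. SOX5 upstream peaks summed to 10.5 and 17.2 CPM at E18 and 1.78 and 5.15 at E28 (-2.10 ± 0.32, adjusted p 0.0038), over 3387 and 3451 bp and 481 and 1273 bp of called sequence, and with the called length offset the value was -0.04, against a median of 0.70 for all upstream sums, and the call was lost. The SOX6 upstream peaks summed to 44.7 and 45.1 CPM at E18 and 65.5 and 61.0 at E28 (0.51 ± 0.10, adjusted p 0.0084), a call lost without either E18 library and among sums of similar called length. Most of this sum is the region at chr2:42363081-42365847 over the start of C2H11orf58 (44.7 and 44.4 CPM at E18, 63.4 and 59.4 at E28), so the 2 gains are not separate. With the called length offset the sum had 0.47, below the median of 0.70 for all upstream sums.

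SOX6 promoter peaks summed to 99.5 and 105 CPM at E18 and 103 and 107 at E28 (-0.12 ± 0.10). The SOX6 intron peaks summed to 95.4 and 110.1 CPM at E18, 126 and 152 at E21 and then 135 and 158 at E28, over 23799 and 23788 bp at E18 against 20172 and 23858 bp at E28. SOX13 intron peaks summed to 34.8 and 41.5 CPM at E18, 19.2 and 11.6 at E21 and then 6.83 and 4.29 at E28 (-2.72 ± 0.32, adjusted p 0.020), a call lost with the offset and in 5 of the 6 fits without a library, in 4 of which 0% of all intron sums passed. The SOX13 promoter sum does not compare the same sequence between libraries. One peak spanned the promoter region in E18 ZZ, while in each other library the region was cut into separate peaks of which only that near the start counted as promoter. The sum was accordingly 36.4 CPM over 5485 bp in E18 ZZ and 16.9 CPM over 1544 bp in E18 DZ, although the merged region had 36.2 CPM in E18 DZ. The fit gave -1.54 ± 0.35 between E28 and E18 (adjusted p 0.036) and 0.03 with the offset, and the call was lost without E18 ZZ, E21 ZZ, E21 DZ or E28 ZZ, with the offset and with exons assigned before promoters. SOX13 upstream peaks, which include the selected distal region, summed to 101 and 132 CPM at E18, 87.4 and 66.7 at E21 and then 53.7 and 38.3 at E28.

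**Figure D3:**
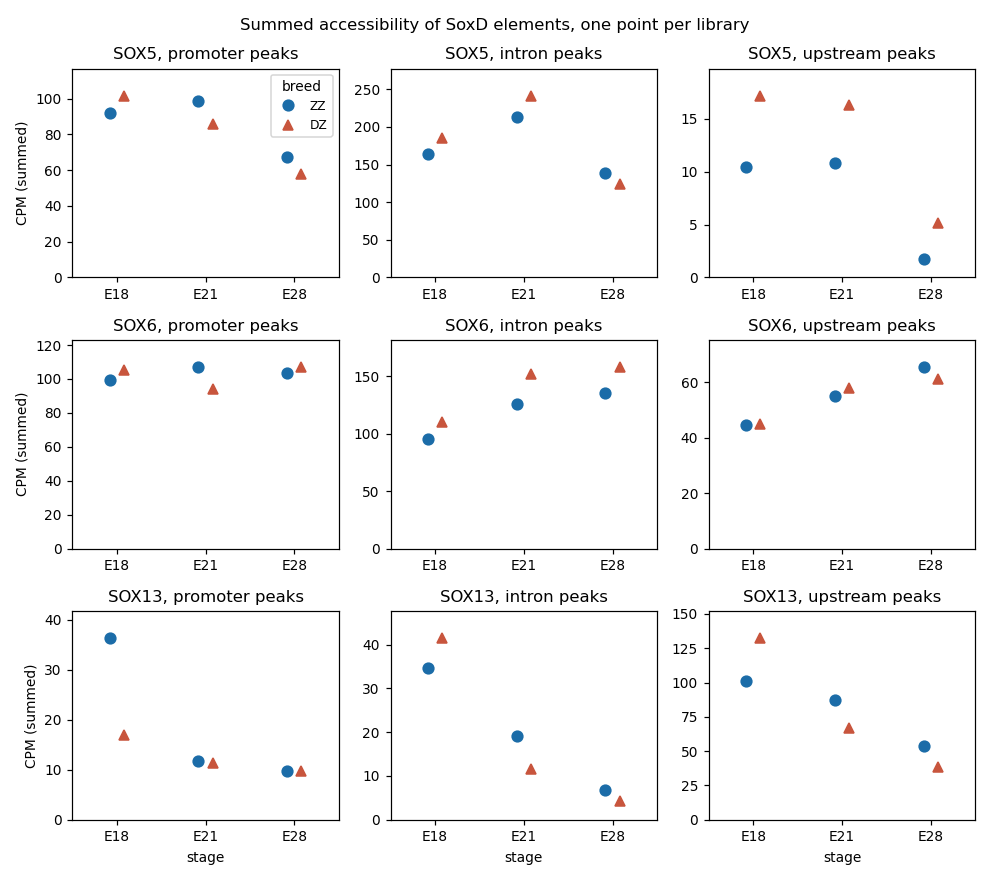
Summed CPM of promoter, intron and upstream peaks of each gene by stage (1 point per library, circles ZZ, triangles DZ, axes from 0). SOX5 intron peaks are highest at E21, SOX6 promoter peaks are level, and each SOX13 sum is lowest at E28.

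The second comparison asked when the changes occurred. Between E21 and E18 8 of the 58 regions passed, 7 higher and 1 lower, against 4.78% higher and 1.68% lower among all regions. The 7 were 5 at SOX5 and 2 at SOX6, the latter within its selecting window. Among them were the SOX5 regions at chr5:49926488-49928450 (1.85) and chr5:49336291-49338978 (1.57) and the SOX6 region at chr2:42670852-42673079 (0.91). With the called length offset this SOX6 region had 0.35, where the median of all regions was 0.08, and lost its call. The named SOX5 regions kept theirs. Between E28 and E21 8 regions passed and all were lower, 7 without the selected distal region, against 2.48% higher and 4.56% lower among all regions. The 2 at SOX6 lie in its selecting window. The 8 included the SOX5 exon region at chr5:49812883-49813767 (-2.50, adjusted p 0.027), which had -0.35 between E21 and E18 (adjusted p 0.53). The SOX6 intron region at chr2:42620661-42622127, also among the 8, had -3.23 between E28 and E21 and 0.19 between E21 and E18, given as descriptions. Both regions were named for their fall between E18 and E28. That contrast uses the same E28 libraries, so the calls of this step are not independent of the choice of these regions. The calls of these steps depended on single libraries: the E21 against E18 count ranged from 0 to 22 and the E28 against E21 count from 0 to 17 when 1 library was left out, and both were 0 without E21 ZZ and without E21 DZ, the first also without E18 DZ. These counts stand without the share of all regions called in the same fits, so they do not set the SoxD regions apart from the series. With the called length offset the 17 calls between E28 and E21 were 6 higher (1 at SOX5 and 5 at SOX6) and 11 lower (8, 2 and 1 at SOX13, the selected region included), or 29.3% of the 58, where 31.1% of all regions were called (28.8% higher and 2.31% lower).

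Among the element sums 0 of 9 passed between E21 and E18 by edgeR (6 with an unadjusted p under 0.05), where 0.158% of promoter sums, 0% of intron sums and 10% of upstream sums passed over all genes. DESeq2 called 5, where it called 25.2%, 25.7% and 38.9% of these sums over all genes. Between E28 and E21 1 of 9 passed, the SOX5 upstream sum (-2.14 ± 0.32, adjusted p 0.016), where 2.32%, 0% and 13.2% passed over all genes. It was not called without E21 ZZ, with peaks open in at least 1% of cells or with no breed term, and with the called length offset the value was 0.01, where the median of all upstream sums was 0.43.

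The remaining 175 regions lacked a peak in at least 1 library, and a region without a peak is listed at 0. At SOX5 26 regions had a peak in both E18 libraries and in no other library (19.1% of 136), against 12.7% of all regions of the series, 9 in both E21 libraries alone (6.62% against 2.21%) and 2 in both E28 libraries alone (1.47% against 2.23%). At SOX6 8 regions were of E18 alone (10.4%), 0 of E21 alone and 3 of E28 alone (3.90%). A further 7 had peaks in all E21 and E28 libraries and none at E18 (9.09% against 2.99%). Peaks in the SOX6 window are part of the measure that selected the gene, so its shares are descriptions and lend no support to a gain at SOX6. At SOX13 4 of 20 were of E18 alone and 0 were gained at E21 or E28. Deeper libraries call more peaks, and E18 had the most counts, so depth and stage cannot be told apart in these numbers.

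Of the SOX6 regions first called at E21, that at chr2:42580884-42582032, 134.1 kb into the gene, was listed at 0 in both E18 libraries and had 3.24 and 6.20 CPM at E21 but 13.7 and 19.4 at E28. The region at chr2:42721940-42724029 had 0.83 and 1.73 CPM at E21 and 6.39 and 17.2 at E28. Both were higher at E28 than at E21 in each breed. SOX5 had 5 regions of this kind. That with the highest CPM (chr5:49351397-49352392) had 1 and 1.32 CPM at E21 but 6.07 and 4.48 at E28, whereas chr5:49652071-49653011 had 2.63 and 2.72 CPM at E21 and 1.41 and 0.19 at E28. The reverse was found at SOX13, where the intronic region at chr9:64751325-64753693, 6.7 kb into the gene, had 16.4 and 20.8 CPM at E18 and 2.218 and 1.153 at E21 and was listed at 0 at E28. An upstream SOX13 region (chr9:64691462-64693474) had 6.79 and 8.46 CPM at E18, 2.4 and 0.53 at E21 and then 0 in both E28 libraries.

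The third comparison set the breeds side by side over the 3 stages. Between DZ and ZZ 0 of the 58 regions passed by edgeR, 1 had an unadjusted p under 0.05 and 0 passed by DESeq2, where 0% of all regions passed by edgeR and 0.202% by DESeq2. Of all 78533 regions 3857 had an unadjusted p under 0.05 by edgeR. The single SoxD region at the unadjusted level was the upstream region of SOX5 at chr5:49114859-49115711, which was higher in DZ at each stage (0.73 ± 0.27, adjusted p 0.85). Of the element sums 0 of 9 passed by edgeR, 1 with an unadjusted p under 0.05, and 0% of promoter, intron and upstream sums passed over all genes. DESeq2 called 2, both higher in DZ, the SOX5 upstream sum (0.95, adjusted p 0.011) and the SOX6 intron sum (0.20, adjusted p 0.018), where it called 0.589% of promoter sums, 2.55% of intron sums and 3.32% of upstream sums over all genes. With 1 library per stage and breed a breed difference at a single stage could not be tested.

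Cells were then grouped by clustering on regions outside chromosomes 2, 5 and 9, so that no region of the 3 genes took part. The 10 clusters gave 7 named classes, each named from marker lists, and clusters 1 and 5, which stayed unnamed. Cluster 1 had both epithelial (7 of 8) and cardiac markers (6 of 6) raised, with mean log2 folds of 1.075 and 1.036 that were too close to choose between. The classes are not replicated samples, and their values are descriptions with no test, each given as the median over the 4 E18 and E21 libraries, in which every class had at least 100 cells. E28 was left out of these medians since neural progenitor-like cells numbered 41 and 27 there. A gene window here means the body of the gene with 2 kb added ahead of it.

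The SOX5 window was most open in neural crest-like cells, at 568 CPM (range 449 to 710), followed by neural progenitor-like cells at 422 CPM (390 to 556) and sclerotome and cartilage-like cells at 402 CPM (395 to 467). The ranges of these classes overlapped. Myogenic-like cells had 243.5 CPM (236 to 269) and endothelial-like cells 211 CPM (170 to 234), and neither range reached the other 3. The SOX6 window was also highest in neural crest-like cells (370 CPM, 283 to 455) and sclerotome and cartilage-like cells (316.5 CPM, 239 to 386), and lowest in neuron-like cells (172 CPM, 149 to 231), and the ranges of the first 2 overlapped. In each library with enough cells both windows were more open in neural crest-like, in sclerotome and cartilage-like and in neural progenitor-like cells than in the other cells of that library. With 7 clusters in place of 10 neither a neural crest-like nor a sclerotome and cartilage-like cluster was found, so that the values of these classes rest on the finer clustering. The SOX13 window was highest in neural progenitor-like cells (90.2 CPM, 74.4 to 132) and lowest in fibroblast and mesenchyme-like cells (44.3 CPM, 17.3 to 84.7), with ranges that overlapped, and E18 was above E21 and E28 in every class with values.

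**Figure D4:**
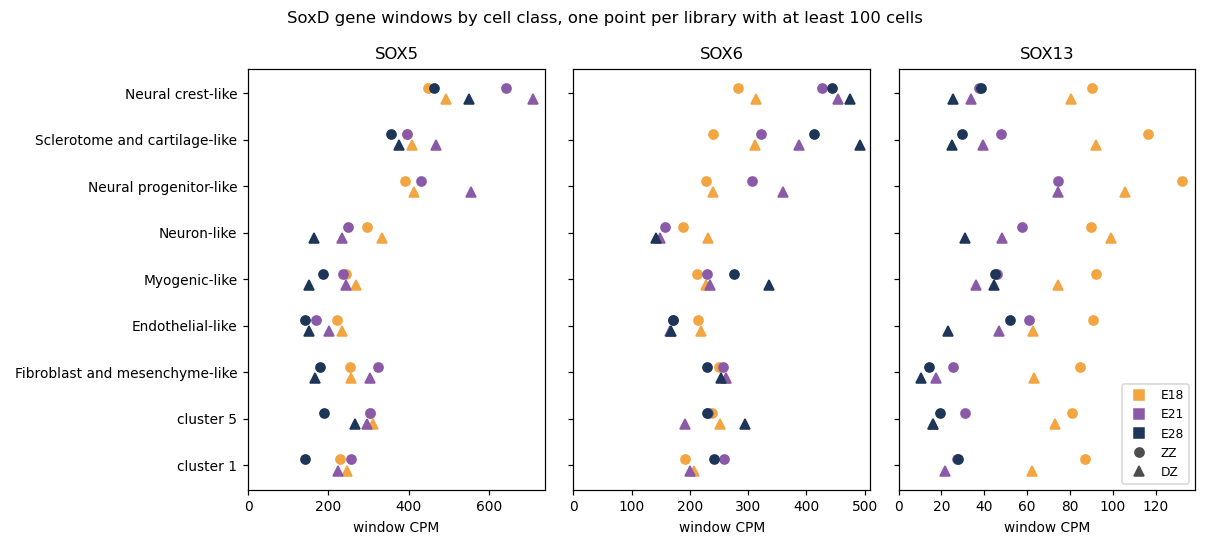
Window CPM of each gene by cell class, 1 point per library with at least 100 cells of the class (colour, stage; circles ZZ, triangles DZ). The SOX5 points are highest in neural crest-like cells, the SOX6 points reach 474 CPM in neural crest-like and 491 CPM in sclerotome and cartilage-like cells, and the E18 points of SOX13 lie to the right in each class.

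Of the 26 shared SOX5 regions 9 were most open in neural crest-like cells and 8 in sclerotome and cartilage-like cells. With the E28 libraries included these counts were 13 and 6. How many of all shared regions each class headed was not counted, so these counts do not set SOX5 apart from the series. The SOX5 region gained at 767.5 kb had 25.4 CPM in sclerotome and cartilage-like cells, 15.7 in neural crest-like cells and 1.37 in neural progenitor-like cells. The gained region at chr5:49336291-49338978 was likewise highest in sclerotome and cartilage-like cells (19.9 CPM), with 1.57 CPM in endothelial-like cells. The lost exon region at chr5:49812883-49813767 had 42.9 CPM in neural progenitor-like and 25.5 in endothelial-like cells but 1.03 in myogenic-like cells. The internal promoter at chr5:49634824-49635998 had 31.4 CPM in neural crest-like and 13.9 in neural progenitor-like cells against 0.70 in myogenic-like cells. The promoter at the gene start ranged only from 37.8 CPM in myogenic-like cells to 60.3 in cluster 1.

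The SOX6 promoter at chr2:42451967-42457462 ranged from 52.2 CPM in neuron-like to 85.1 in fibroblast and mesenchyme-like cells. The 25 shared SOX6 regions were headed by different classes, 7 by neural crest-like, 5 by sclerotome and cartilage-like, 4 by myogenic-like and 4 by fibroblast and mesenchyme-like cells. With the E28 libraries included the counts of these classes were 7, 5, 4 and 1. They too were not set against all shared regions. The gained region at chr2:43025817-43026654 had 9.85 CPM in myogenic-like cells, 8.07 in fibroblast and mesenchyme-like cells and 0.74 in neural progenitor-like cells. The lost region at chr2:43036661-43037693 had 1.08 CPM in myogenic-like and 17.3 in sclerotome and cartilage-like cells. The lost region at chr2:42620661-42622127 had 31.1 CPM in neural crest-like and 29.9 in neural progenitor-like cells and 1.26 in myogenic-like cells. Of the regions without a peak at E18, whose medians are over the E21 and E28 libraries, that at chr2:42580884-42582032 had 34.9 CPM in sclerotome and cartilage-like cells and 7.497 in myogenic-like cells, and that at chr2:42721940-42724029 had 7.58 in myogenic-like and 1.30 in sclerotome and cartilage-like cells. A SOX6 region named after its values were seen, chr2:42751610-42752731, had 3.04 CPM in myogenic-like cells and 1.17 in neuron-like cells, the class with the next highest value. It had 0.45 and 0.10 CPM over 237 and 95 bp at E18 and 1.75 and 4.07 CPM over 418 and 602 bp at E28 (3.60 ± 0.90).

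At SOX13 the selected distal region had 74.0 CPM in neural progenitor-like and 64.8 in neural crest-like cells against 12.7 in myogenic-like cells. The promoter region at chr9:64739626-64744749 had another order, with 46.8 CPM in sclerotome and cartilage-like and 37.6 in myogenic-like cells against 11.7 in endothelial-like cells. The region at chr9:64731274-64735300 ranged from 41.0 to 51.9 CPM over all classes.

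**Figure D5:**
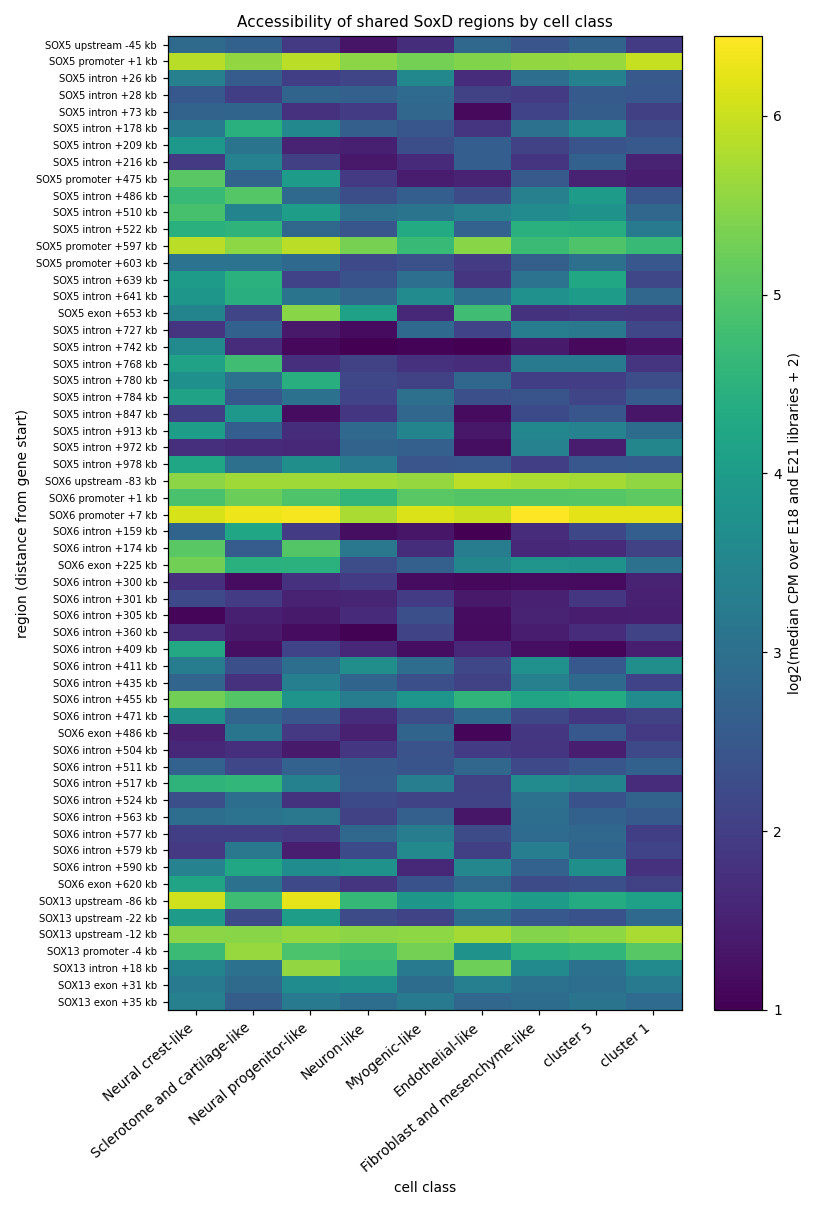
Heat map of log2 of the median CPM over the 4 E18 and E21 libraries plus 2 for the 58 shared regions (rows, by gene and position) in the 9 cell classes and unnamed clusters (columns). Rows at the gene starts of SOX5 and SOX6 are bright in all columns, while most intronic rows are bright in a few.

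The cell classes changed in number with stage. Fibroblast and mesenchyme-like cells made up 4.31% and 4.05% of the cells at E18 and 61.7% and 62.9% at E28, neural progenitor-like cells 18.0% and 29.6% at E18 and 0.44% and 0.29% at E28, and neural crest-like cells 4.90% and 7.09% at E18 and 1.49% and 1.92% at E28. Sclerotome and cartilage-like cells went from 1.17% and 1.30% to 15.2% and 7.08%, and cluster 1 from 41.1% and 30.6% to 1.35% and 0.90%. The element changes above are those of whole libraries, and fewer cells of a class and less open chromatin per cell cannot be told apart in them. Windows are also described within classes, where those of SOX6 are parts of the measure by which the gene was selected. The counts of a class come only from peaks called on each whole library, so the shorter called sequence at E28 limits every class. The part of called length in these values was not tested. SOX13 was lower at E28 than at E18 in both breeds in each of the 6 groups of cells with enough cells, from -0.71 in myogenic-like DZ cells to -2.43 in fibroblast and mesenchyme-like ZZ cells. That class joins clusters 0 and 4, with 285 and 199 cells in E18 ZZ, 285 and 123 in E18 DZ, 3694 and 2111 in E28 ZZ and then 5576 and 363 in E28 DZ, so its mixture also differed between the libraries. SOX6 was higher at E28 in both breeds in myogenic-like (0.37 and 0.55), sclerotome and cartilage-like (0.79 and 0.66) and neural crest-like cells (0.64 and 0.59), and lower in endothelial-like (-0.33 and -0.39) and fibroblast and mesenchyme-like cells (-0.13 and -0.05), with -0.06 in ZZ and 0.23 in DZ in the unnamed cluster 5. SOX5 was lower in myogenic-like (-0.38 and -0.82), fibroblast and mesenchyme-like (-0.51 and -0.63) and endothelial-like cells (-0.64 and -0.62) and in cluster 5 (-0.69 and -0.23), and differed less in sclerotome and cartilage-like (-0.15 and -0.12) and neural crest-like cells (0.04 and 0.16).

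Equal weight in every library was given to the 7 of 10 clusters with at least 100 cells in each, which leaves out cluster 1 and the neural progenitor-like and neuron-like clusters, so that the comparison with all cells also changes which cells are counted. The log2 change of the SOX13 window between E18 and E28 was then -1.53 in ZZ and -1.65 in DZ, against -1.92 and -1.82 over all cells. That of SOX5 was -0.33 and -0.31, against -0.46 and -0.82, and that of SOX6 was 0.22 and 0.28, against 0.29 and 0.29. These are descriptions with no test, the SOX6 values are those of the measure that selected the gene, and the part of the class shares in the changes of whole libraries was not tested. Counts here too come only from peaks called on each whole library, and the part of called length was not tested either.

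The SOX5 and SOX6 windows varied together over clusters and libraries (Pearson correlation of 0.81 over 60 cluster by library values of log2(CPM + 2), centred within libraries), whereas that of SOX13 had 0.11 with SOX5 and 0.04 with SOX6. These points share libraries and depth and carry no p. Among 19384 windows the most similar to SOX5 were TMPRSS5 (0.88), MMP2 (0.87), LOC106504879 (0.86), GHRH (0.86) and LOC102165785 (0.85). Those most similar to SOX6 were SPATA31D1 (0.84), AMOTL2 (0.84), TNS3 (0.82), TCF7L2 (0.81) and SOX5 itself. The closest to SOX13 were BAHCC1 (0.72), FZD9, a Wnt receptor (0.70), C14H10orf105 (0.70), CXXC5 (0.70) and ZNF135 (0.69).

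The windows of related genes gave the setting for these changes, and of the 23286 windows tested 19% rose and 22.6% fell by E28. Of 16 other SOX genes 1 was higher and 8 were lower (median log2 fold change -0.63, against -0.07 for all windows). SOX3, a SoxB1 factor of neural progenitors, fell by 1.98, SOX18, a factor of endothelial cells, by 1.58, and SOX21 by 1.13, and each lost called length (SOX3 from 7403 and 7346 bp to 1504 and 1490 bp). With called length as an offset, which moved the median of all windows from -0.07 to 0.52, these 3 had values of 0.30, 0.91 and 0.01, so that SOX3 and SOX21 were below that median and SOX18 above it. SOX9, the partner of SOX5 and SOX6 in cartilage, had 0.39 ± 0.16 (adjusted p 0.11).

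Of 12 genes of cartilage matrix that SOX9 acts on with SOX5 and SOX6, 1 was higher and 3 were lower (median -0.13). The 3 were CNMD (-1.29), COMP (-1.17) and ACAN, the core protein aggrecan (-0.91), and CNMD and ACAN had offset values of 0.47 and 0.37, above 0 but below the median of all windows, while COMP had -0.56 and kept its call (adjusted p 0.0086). Of 13 muscle fibre type genes 2 were higher and 3 lower (median 0.36). That median takes in MYH1 (9.64), MYH2 (11.85) and MYH4 (5.14), which did not pass and lacked a peak in some libraries. Their highest value in any library was 3.574 CPM, and their fold changes raise the median of the list. TNNT3, a fast troponin, had 27.7 and 23.8 CPM in the E18 libraries and 53.6 and 42.3 CPM in the E28 libraries (0.83 ± 0.12, adjusted p 0.0082). TNNI1, the slow troponin I (-1.0, offset 0.31), and PRDM1 (-0.77, offset 0.49) were lower, with offset values below the offset median of all windows. In the edgeR fit with the offset PRDM1 was called higher (adjusted p 0.0049). Of the 4 TCF/LEF factors, partners of SOX13, TCF7 (-1.13, offset 0.20) and LEF1 (-0.64, offset 0.21) were lower, also below that median with the offset, and TCF7L1 (0.14, adjusted p 0.42) and TCF7L2 (-0.12, adjusted p 0.40) did not pass. Without the E18 DZ library 4 of these 45 windows passed in place of 20, where 5.26% of all windows passed.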

How the data were processed

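Chromatin accessibility was measured by single-cell ATAC-seq in 6 libraries. The submitters' processing notes name Cell Ranger ATAC, Seurat 3.1.1 and Signac 0.2.2. The deposited files hold counts of Tn5 cut sites per peak and barcode, made by the authors with peaks called separately in each library on Sscrofa11.1, so a count exists only within that library's peaks.

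Barcodes with 2000 to 30000 counts were kept, 58809 of 64439, and their counts were summed per library. Peaks were merged where they overlapped by at least 1 bp. Elements were assigned in the order promoter (2 kb before an annotated start), exon, intron and upstream (100 kb). Stage and breed were tested with edgeR 4.0.16 (R 4.3.3, quasi-likelihood, TMM, filterByExpr, stage plus breed, 2 residual degrees of freedom) with Benjamini-Hochberg adjustment over all features of a kind. The steps were tested on simulated data. SE values are those of log2 fold changes. The precision of single values rests on 1 library per stage and breed.

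Cells were clustered on 61384 regions (TF-IDF, 30 components after the first, which followed depth with a correlation of 0.992, 5 neighbours per library, Leiden resolution 0.6, scikit-learn 1.9.0 and leidenalg 0.10.2), and a class with fewer than 100 cells in a library was left out there. The correlations of windows over clusters used all 60 values without this limit. No doublet caller was run. A cluster was named where at least 3 markers of a list were raised, the mean log2 fold of that list exceeded the next by at least 0.1, and no other list had more genes among the 10 leading ones.

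Regions named in the text were, for each gene, all shared promoter regions, the 3 called regions with the smallest p in each direction between E28 and E18, the 2 most accessible body and upstream regions, and the 2 most accessible regions limited to some stages. From each gene list the 3 called windows with the largest change were named. Other names were chosen after their values were seen and serve as description. The members and lists were chosen with earlier results of these data known. Alternatives were DESeq2 1.42.0, its size factors, no filter, called length as an offset, features with called lengths within 1.5 times, regions covered by at least 50%, peaks open in at least 1% of barcodes, 4000 to 60000 counts, no breed or stage term, exon before promoter, Leiden resolution 0.3, and each library left out. SNORC, MYH3 and MYH8 of the gene lists had no entry under these symbols in the annotation and were not analysed here.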

Additional observations from a re-analysis of the deposited data

Results flagged for a closer look

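In CPM the SOX6 promoter region at chr2:42445887-42450301 changed by 0.08 on the log2 scale in ZZ and by -0.03 in DZ between E18 and E28. CPM leaves out the TMM factors of the fit, which rose from 0.971 to 1.034 in ZZ and from 0.977 to 0.984 in DZ. They lower the ZZ value more than the DZ value, so opposite directions cannot be read from these values. The fit gave -0.02 ± 0.12 over both breeds. The difference of -0.11 between DZ and ZZ rests on 1 library per stage and breed and was not tested.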

How the results depend on the processing

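The fit reported compares the stages within breeds through its breed term, and the fit without that term is among the alternatives. Counts below that stand without a share of all features describe the fits and do not set the listed features apart from the series. Between E28 and E18 DESeq2 called 6 regions higher and 12 lower at SOX5, 7 and 5 at SOX6 and 0 and 7 at SOX13. It called 43.2% of all regions in that contrast. Of the SoxD regions called between E28 and E18, 28 in the fit reported with the selected distal region and 8 regions of the SOX6 window among them, 6 of 15 were called among features with called lengths within 1.5 times (34.9% of all such regions) and 10 of 28 (39.2%) among regions covered by at least 50% in every library, where fewer regions were tested, and leaving out 1 library gave 8 to 37. Between E21 and E18 (8 called) DESeq2 gave 17 (it called 18.1% of all regions), the called length offset 13 (also 18.1%) and leaving out 1 library 0 to 22. Between E28 and E21 (8 called) the values were 15 with DESeq2 (19.7% of all regions), 17 with the offset (31.1%), 3 within 1.5 times and 0 to 17 without 1 library. Between DZ and ZZ the count without 1 library was 0 throughout. Of the element sums 7 were called between E28 and E18, 2 of which hold the selecting measures and are descriptions, against 4 of 9 with the offset (51.6% of all promoter, 79.4% of intron and 81.8% of upstream sums), 2 within 1.5 times and 3 to 5 without 1 library. Between E21 and E18 (0 called) DESeq2 gave 5, the offset 1 and leaving out 1 library 0 to 1. Between E28 and E21 (1 called) DESeq2 gave 4 (25% of all promoter, 32.2% of intron and 38.6% of upstream sums), the offset 2, the fit with no breed term 2, peaks open in at least 1% of barcodes 0, and leaving out 1 library 0 to 2. Between DZ and ZZ DESeq2 gave 2 and leaving out 1 library 0. The listed gene windows, 20 called, gave 1 within 1.5 times and 4 to 23 without 1 library.

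With the called length offset the direction turned for the SOX13 promoter region between E28 and E21 (0.38), for the SOX5 intron sum (0.999 between E28 and E18 and 0.53 between E28 and E21), the SOX5 upstream sum between E28 and E21 (0.0099), the SOX13 promoter sum (0.030) and the windows of SOX3 (0.30), SOX18 (0.91), SOX21 (0.015), CNMD (0.47), ACAN (0.37), TNNI1 (0.31), PRDM1 (0.49), TCF7 (0.20) and LEF1 (0.21). With exons assigned before promoters the SOX5 promoter sum was 0.0042. At Leiden resolution 0.3, where 7 clusters included no sclerotome and cartilage-like and no neural crest-like one, the windows of SOX5 (0.033) and SOX6 (0.12) in fibroblast and mesenchyme-like cells were above those of other cells. The offset moved the median of all features up, to 0.42 (E28 and E18) and 0.32 (E28 and E21) for regions, 0.82 and 0.56 for intron sums, 0.31 for promoter sums and 0.43 (E28 and E21) for upstream sums, and 0.52 for windows. Of these 14 values, each called with or without the offset, 3 also turned relative to these medians, those of the SOX13 promoter region, the SOX5 intron sum between E28 and E18 and SOX18. With values called in neither fit counted, 23 turned from 0 between stages with the offset, 5 of them also from the median. Among these were the SOX5 upstream region (0.15), the SOX6 promoter region at the gene start (0.18) and the SOX6 promoter sum (0.041) between E28 and E18. The neighbouring SOX6 promoter region, at 0.0024 in the fit reported, was -0.22 within 1.5 times, -0.012 with peaks open in at least 1% and -0.16 among regions covered by at least 50%. Without 1 library the values between E28 and E18 ran from -0.43 to 0.069 for the SOX5 upstream region, from -0.11 to 0.064 for the SOX6 region at the gene start and from -0.080 to 0.095 for its neighbour, and those between E21 and E18 from -0.82 to 0.16 for the SOX5 exon region and from -0.23 to 0.59 for the SOX6 intron region at chr2:42620661-42622127. The cause was not tested. Over the single regions, sums, windows and class values under each alternative 1813 values kept their direction and their side of the threshold, 111 lost a call, 72 gained one, 2 class values moved by more than their spread and 109 turned, 92 of which were called in neither fit. Depth limits the regions of few counts, and a region with no peak in a library has no count there.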
